A study of Mus musculus with 30 samples.

Results

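The late step of salivary gland disease without treatment was followed in control antibody mice, by setting glands taken at week 24 of age against glands taken at week 16. The comparison uses 10 of the study's 30 arrays, 5 at each age, chosen by their titles alone. All mice were NOD.H-2h4 females, and each of these 10 had received 1 intraperitoneal injection of a human IgG1 isotype control antibody at 20 mg/kg when 4 weeks old. The other arrays used below come from mice given anti-CD40L antibody at the same dose and age, with 5 arrays at week 16 and 5 at week 24, and from control mice at week 8. RNA of the whole salivary gland was measured on Affymetrix Mouse Genome 430 2.0 arrays, which report a log2 intensity for each probe set. The labels call the 5 arrays of a group biological replicates without stating how many mice stand behind each. Each gene is given by 1 probe set, so its level may be compared between arrays but not with the level of another gene.

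NOD.H-2h4 mice develop an autoimmune sialadenitis in which lymphocytes gather around ducts and vessels of the gland. In such foci B cells can be activated with T cell help through CD40 and its ligand CD40L, and antibody-secreting plasma cells settle in the tissue. The gland itself consists of secretory acini, with heavy protein traffic through the endoplasmic reticulum, and of ducts that modify the saliva. In RNA of a whole gland, fewer cells of a type and less RNA per cell cannot be told apart.

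Measures of array quality and tissue make-up bear on the results. The gland markers were present throughout: Klk1, a granular duct kallikrein, lay between 14.06 and 14.22 in all 10 arrays, and Aqp5, the acinar water channel, between 10.89 and 11.99. Amy1, the parotid amylase, split the arrays into a high and a low class at 10.13, with arrays 1 and 4 high in both age groups and arrays 2, 3 and 5 low. The mean level of 8 skeletal muscle genes was 5.67 to 5.81 at week 16 and 5.97 to 7.12 at week 24, with no overlap (exact two-sided permutation p = 0.00794, the smallest that 5 against 5 allows, 0.0238 after Benjamini-Hochberg adjustment over 6 array measures). These are the 8 of 14 muscle genes on the array that were brighter than the array median in 5 or more arrays. Members dim at week 16 can pass this filter through the arrays where they are high, so the choice of members may favour this difference. The difference between 3' and 5' control probe sets, which grows as RNA degrades, averaged 0.291 at week 16 and 0.406 at week 24 (exact permutation p = 0.0556, adjusted 0.111), with the highest value, 0.61, in week 24 array 1. The median correlation of an array with the other arrays of the study was 0.9849 to 0.9874 at week 16 and 0.9686 to 0.9819 at week 24, again with no overlap (exact permutation p = 0.00794, adjusted 0.0238).

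Of 12999 genes tested, 1609 differed between week 24 and week 16 at an adjusted p under 0.05 (12.4%; limma, Benjamini-Hochberg over all genes tested). These split into 649 higher at week 24 (4.99%) and 960 lower (7.39%), and quantile normalization changed the split to 1081 higher of 1959. Every week 24 array lay above every week 16 array for 472 genes (3.63%), of which 320 passed (2.46%), and below for 733 (5.64%), of which 536 passed (4.12%). The median change over all genes was 0.01 on the log2 scale. Leaving out 1 array moved the count by more than 1.5 times in 5 cases: 566 genes passed without week 24 array 1, 755 without week 24 array 3, 650 without week 16 array 2, 658 without week 16 array 5 and 1039 without week 16 array 1. With the skeletal muscle level as a covariate 155 genes passed, and with the 3' minus 5' difference 717 did. The muscle level did not overlap between the ages, so a call lost with it cannot tell muscle content from age. Of the 66 genes that passed and were chosen by the rule for named genes, 12 also passed with the muscle level (Ighg3, Tnfrsf13b, Prg2, Bhlha15, Dnajb9, Manf, Slc23a2, Cdr2, Pprc1, Nr4a2, Nfil3 and Klf4), 39 with the 3' minus 5' difference and 33 in a fit of the 10 arrays alone.

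Among 32 gene lists that describe cell types and pathways, 20 had at least 1 gene that passed. Since 12.4% of all genes tested passed, many sets of this size would hold such a gene, and the number 20 is no result about the lists. Of these 20, 7 did so with the muscle level as a covariate, 16 with the 3' minus 5' difference and 12 in the fit of the 10 arrays alone. In the 13 lists left without a call by the muscle level, 38 of 151 tested genes had an unadjusted limma p under 0.05; the figures were 10 of 36 in 4 lists with the 3' minus 5' difference and 25 of 79 in 8 lists with the 10 arrays alone. Rises stood mainly in lymphocyte, antibody and skeletal muscle lists, and falls in matrix, acinar, duct and unfolded protein response lists. The counts per list are to be read against the 4.99% of all genes that rose and the 7.39% that fell. Counts of changes above 0 are to be read against 50.9% of all genes. Members of a list were measured in the same 10 arrays, so their signs are not independent of each other. In the fit of all 30 arrays, 3894 of 12999 genes had an unadjusted limma p under 0.05 over this step. Unadjusted counts of single lists in that fit are to be read against this number. No such number over all genes is given for this step in the other fits, so their unadjusted counts have no background here.

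**Figure D1:**
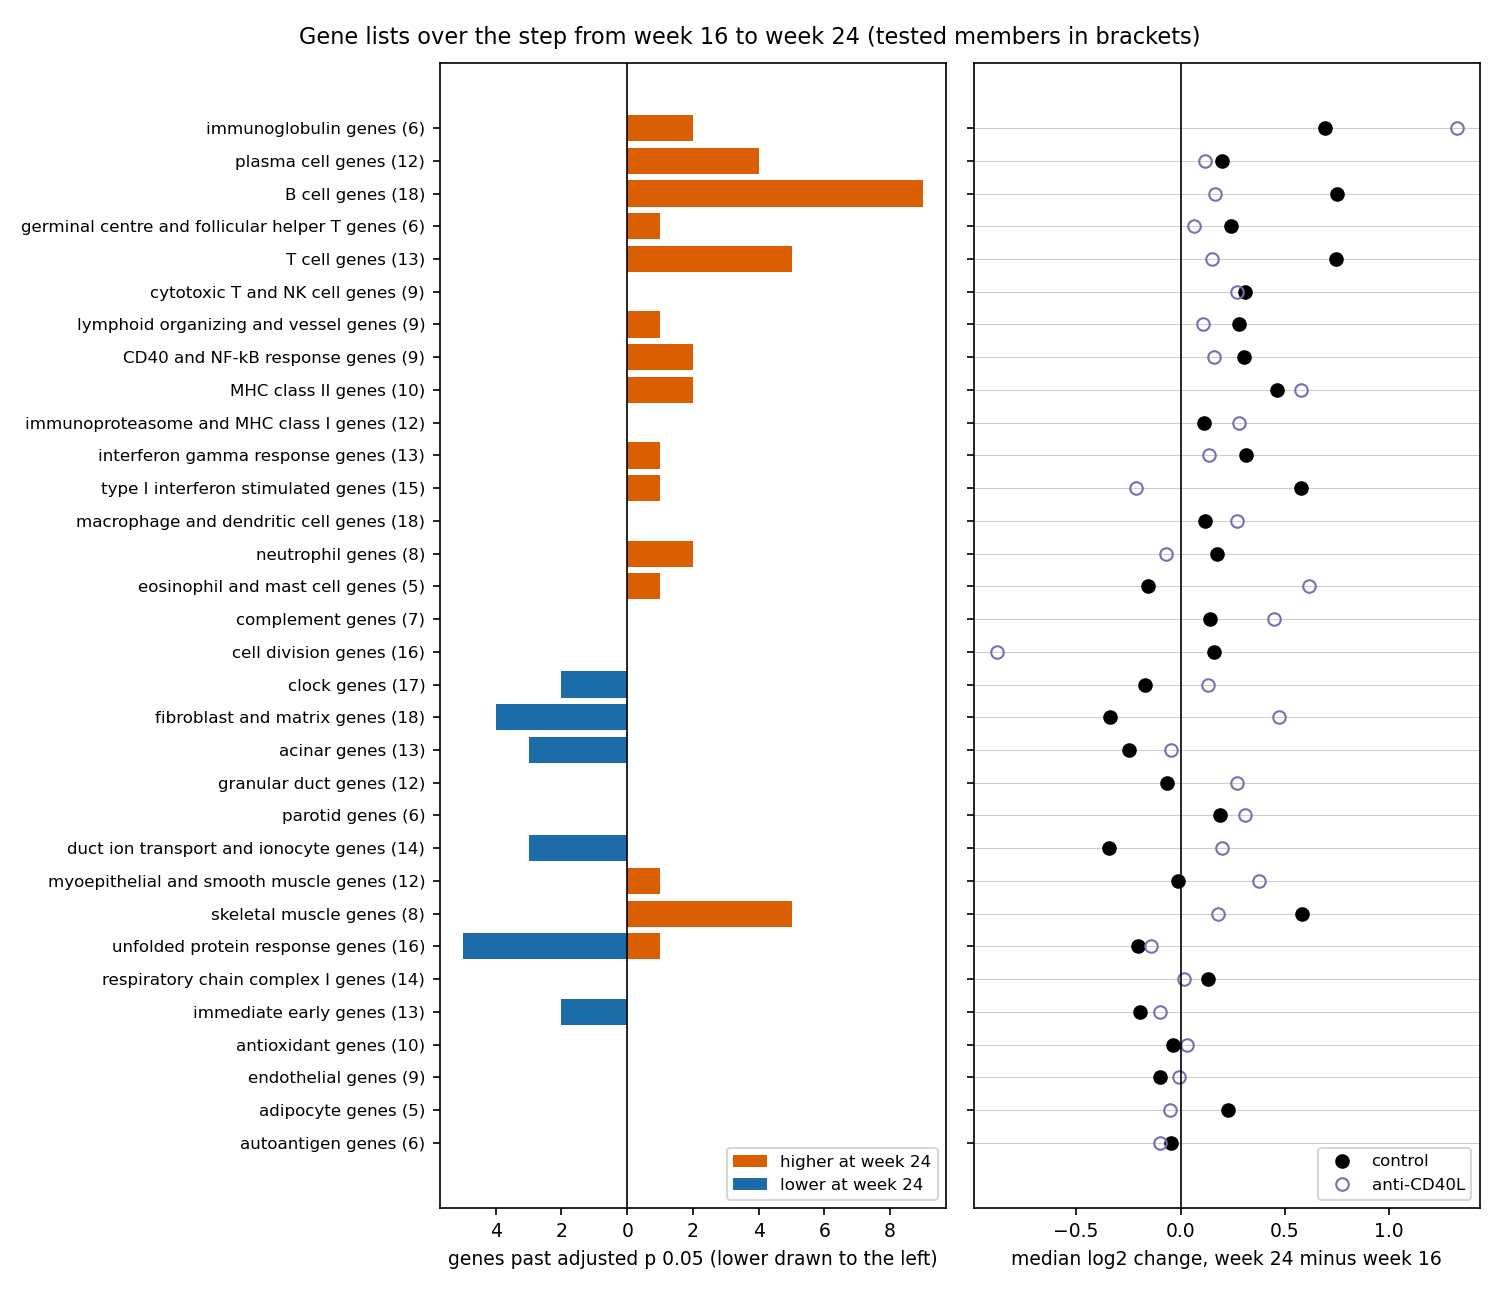
Left, the number of tested genes of each list past an adjusted p of 0.05 over the step from week 16 to week 24 in control glands, with higher genes to the right of 0 and lower genes to the left. Right, the median log2 change of each list in control glands (filled) and in anti-CD40L glands (open); the B cell list had 9 higher genes and a control median of 0.75, and the fibroblast and matrix list 4 lower genes and a median of -0.34.

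Antibody transcripts rose for 2 of 6 genes. Ighm, the constant region of IgM, was the largest rise of all genes, with 9.85, 8.48, 7.54, 12.52 and 8.37 in the week 16 arrays and 12.44, 13.28, 12.52, 12.19 and 13.39 at week 24. The groups overlapped only through week 16 array 4, and the other 4 week 16 arrays lay at 9.85 or lower. This was a rise of 3.41 ± 0.77 (SE, n = 5 per group), or 10.6-fold, with an adjusted p of 0.00727. Ighg3, the constant region of IgG3, had values of 6.30, 6.01, 5.46, 7.26 and 6.20 at week 16 and 8.55, 10.28, 7.61, 7.16 and 9.80 at week 24. Again week 16 array 4 was the one array that reached into the week 24 range, and the rise was 2.44 ± 0.41, or 5.41-fold (adjusted p = 0.000979); 3 other Ighg3 probe sets changed by only -0.12 to 0.055. Igha, the IgA constant region, was already near the top of the scale at week 16 with 13.13 to 13.69, and lay at 13.02 to 13.60 at week 24, a change of -0.05 (adjusted p = 0.92). Jchain, which joins IgA and IgM into polymers, changed by 0.43 (adjusted p = 0.398) and Igk, a kappa light chain probe set, by 0.06 (adjusted p = 0.889). None of the 6 fell, and their median was 0.69. The call of Ighm did not pass with the muscle level as a covariate (adjusted p = 0.144). Igkv6-14, a kappa variable segment outside that list, rose by 1.55 (adjusted p = 0.0258; lost in 5 of 10 leave-one-out fits, at most to 0.0825 without week 16 array 2).

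Plasma cell genes split likewise. Of 12 tested genes 4 rose and none fell, with a list median of 0.20. Mzb1, an endoplasmic reticulum chaperone of antibody-secreting and marginal zone B cells, rose by 1.54 ± 0.34 (adjusted p = 0.00704). Tnfrsf13b, which encodes the receptor TACI, had 5.71, 4.96, 4.94, 6.16 and 5.24 at week 16 and 6.90, 7.22, 6.33, 6.23 and 6.68 at week 24. All 5 week 24 arrays lay above all week 16 arrays, and the rise was 1.27 ± 0.21 (adjusted p = 0.000754). Eaf2 rose by 0.75 and Tnfrsf17, which encodes the plasma cell survival receptor BCMA, by 0.74. Derl3 and Creld2, which serve protein folding and are shared with the secretory acini, moved by -0.41 and -0.49 without passing (adjusted p = 0.155 and 0.132). The call of Eaf2 was lost without week 24 array 1 (adjusted p = 0.0631), and that of Tnfrsf17 in 5 of 10 leave-one-out fits, with the highest value, 0.0801, without week 24 array 3.

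B cell genes gave the highest number of rises of any list, with 9 of 18 tested genes higher, none lower and a median of 0.75. The list has 23 genes on the array, and those too dim in most arrays were not tested. A gene dim at week 16 can pass that filter through the arrays where it is high, so the tested genes may favour rises. Ms4a1, which encodes the B cell surface protein CD20, had 6.99, 4.69, 4.70, 7.64 and 4.45 at week 16 and 9.90, 9.97, 7.33, 6.51 and 9.33 at week 24. The 3 low Amy1 arrays of week 16 stood together near the bottom of the scale, and only week 24 arrays 3 and 4 fell within the reach of week 16 arrays 1 and 4. The rise of 2.91 ± 0.58 corresponds to 7.52-fold (adjusted p = 0.00371). This SE rests on 1 spread per gene over all 30 arrays, which include the less variable anti-CD40L arrays. The mean level of the B cell list had an SD of 0.45 and 0.58 in controls at weeks 16 and 24. After anti-CD40L the SD was 0.05 and 0.12. Cd79b and Cd79a, the signalling chains of the B cell receptor, rose by 2.00 ± 0.36 (adjusted p = 0.00182) and 1.05 ± 0.22 (adjusted p = 0.00542). The other genes that rose were H2-Ob (1.79), the adaptor Bank1 (1.39), the transcription factor Spib (0.98), the inhibitory receptor Cd22 (0.94), Ly6d (0.87) and Tnfrsf13c (0.73), the BAFF receptor gene. Cd72 (0.77, adjusted p = 0.0648) and Cd37 (0.67, adjusted p = 0.113) did not pass. The mean level of the list was 6.83 and 7.01 in week 16 arrays 1 and 4, 6.09 to 6.14 in the other 3, and 6.58 to 7.99 at week 24, so the groups overlapped through the high Amy1 arrays. The count of B cell genes ranged from 5 to 12 with single arrays left out; it was 11 without week 16 arrays 1 and 4, 8 without week 24 arrays 2 and 3, 3 in a fit of the 10 arrays alone and 0 with the muscle level as a covariate, where 8 had an unadjusted p under 0.05. H2-Ob and Spib were each lost in 6 of 10 leave-one-out fits, Tnfrsf13c in 4 and Bank1 in 3, with the highest adjusted p of H2-Ob, 0.114, without week 24 array 1.

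**Figure D2:**
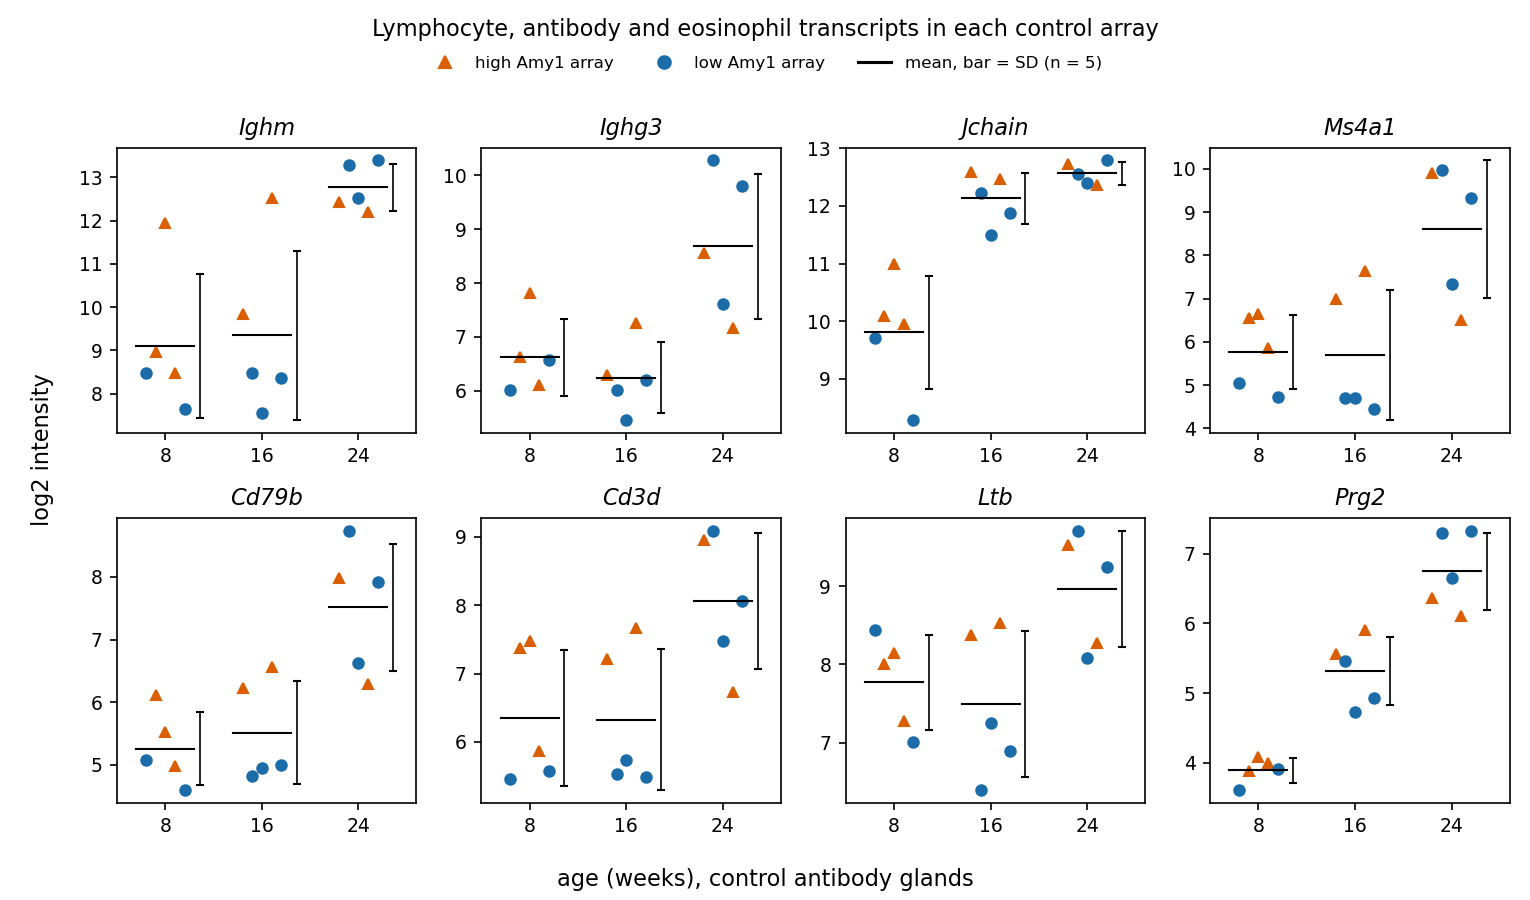
Log2 intensity of 8 transcripts in each control array at weeks 8, 16 and 24, with triangles for high Amy1 arrays, circles for low Amy1 arrays, lines for group means and bars for SD (n = 5). Ighm reached 12.19 to 13.39 in all week 24 arrays, against 7.54 to 9.85 in 4 of the 5 week 16 arrays.

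T cell genes rose in smaller number. Of 13 tested genes 5 were higher and none lower, with a median of 0.74 and all 13 changes above 0. Cd3d, a chain of the T cell receptor complex, had 7.21, 5.53, 5.74, 7.66 and 5.50 at week 16 and 8.96, 9.09, 7.48, 6.73 and 8.06 at week 24. Week 16 arrays 1 and 4 lay inside the week 24 range, as for Ms4a1, and the rise was 1.74 ± 0.46 (adjusted p = 0.0175). Ms4a4b (1.76), Cd2 (1.11), an adhesion molecule, Il7r (1.10), the receptor for interleukin 7, and Lat also passed. Trbv1, a T cell receptor beta variable segment, rose by 1.82 ± 0.60 (adjusted p = 0.0444), and E330020D12Rik, whose role is not described here, by 1.71 ± 0.47 (adjusted p = 0.0206). Cd3g (1.56, adjusted p = 0.0539), Cd4 (0.76, adjusted p = 0.0816) and Cd3e (0.51, adjusted p = 0.163) missed the threshold. Of 9 cytotoxic T and natural killer cell genes none passed, nor did any have an unadjusted p under 0.05 (limma); Klrd1 changed by 0.93 (adjusted p = 0.218) and the chemokine Ccl5 by 0.58 (adjusted p = 0.286). With single arrays left out the T cell count ranged from 1 to 7, and it was 1 with the 3' minus 5' difference as a covariate. It was 0 in the fit of the 10 arrays alone, where 9 had an unadjusted p under 0.05, and 0 with the muscle level, where 3 did. Without week 24 array 1 the adjusted p was 0.069 for Cd3d, 0.177 for Ms4a4b, 0.133 for Cd2, 0.157 for Trbv1 and 0.0882 for E330020D12Rik.

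Of 9 tested genes of lymphoid tissue organization and its vessels, Ltb alone passed. It encodes lymphotoxin beta, which instructs stromal cells of lymphoid tissue, and had 8.37, 6.39, 7.25, 8.53 and 6.89 at week 16 against 9.52, 9.71, 8.08, 8.27 and 9.25 at week 24. The rise was 1.48 ± 0.39 (adjusted p = 0.0172), and it was lost in 3 of 10 leave-one-out fits, at most to 0.0682 without week 16 array 2. Cxcl13, the chemokine that draws B cells into follicles, changed by 1.03 (adjusted p = 0.0688). Glycam1, a ligand of L-selectin on high endothelial venules, reached 8.33 and 7.95 in week 24 arrays 1 and 2 but 4.60 to 5.33 in the other 3, so the change of 1.43 did not pass (adjusted p = 0.227). Madcam1, another vessel ligand, changed by 0.12 (adjusted p = 0.634). Of 6 germinal centre and follicular helper T genes, Mef2b alone rose, by 0.44, in all 5 arrays above all of week 16 (adjusted p = 0.0439; lost in 8 of 10 leave-one-out fits, at most to 0.155 without week 24 array 1), while Bcl6 changed by -0.40 (adjusted p = 0.305).

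The transcript of the antibody's own target was too dim to be tested: Cd40lg had a mean of 4.86 ± 0.18 (SD, n = 5) at week 16 and 4.70 ± 0.23 at week 24. Cd40, its receptor on B cells and antigen-presenting cells, changed by 0.36 (adjusted p = 0.124). Of 9 tested genes that CD40 and NF-kB signalling induce, all had changes above 0 and 2 passed. Cd83, a marker of activated B cells and dendritic cells, rose by 1.09 ± 0.32 (adjusted p = 0.0261). Icosl, which encodes the ligand of the T cell receptor ICOS, rose by 0.36 ± 0.11 with no overlap between the groups (adjusted p = 0.0294). Each of these calls was lost in 5 of 10 leave-one-out fits, at most to 0.0955 for Cd83 without week 24 array 1 and to 0.0816 for Icosl without week 16 array 2.

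MHC class II genes present antigen to helper T cells, and their promoters carry a conserved Y box that binds the factor NF-Y. Of 10 tested genes 2 rose, none fell and all changes lay above 0, with a median of 0.46. Both genes that passed encode non-classical chains that steer peptide loading: H2-DMb2 rose by 1.26 ± 0.34 (adjusted p = 0.0172) and H2-Oa by 1.10 ± 0.27 (adjusted p = 0.0111). Together with H2-Ob, the partner of H2-Oa counted above among the B cell genes, they are the class II genes that rose, and the promoters of all 3 are shown for that reason. The sequences are RefSeq promoters of build GRCm38.p6, which cover the gene start, written 5′ to 3′ on the gene's strand, with the Y box letters GATTGG, searched on both strands, in capitals. They lie at chr17:34092129-34092428 (H2-Oa), chr17:34144999-34145298 (H2-DMb2) and chr17:34238655-34238954 (H2-Ob), each on the plus strand.
H2-Oa: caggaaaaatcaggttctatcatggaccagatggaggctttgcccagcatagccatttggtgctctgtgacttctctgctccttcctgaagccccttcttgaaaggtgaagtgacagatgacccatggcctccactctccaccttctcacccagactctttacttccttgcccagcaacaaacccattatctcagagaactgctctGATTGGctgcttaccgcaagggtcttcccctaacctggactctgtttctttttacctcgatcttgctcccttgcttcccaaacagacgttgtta
H2-DMb2: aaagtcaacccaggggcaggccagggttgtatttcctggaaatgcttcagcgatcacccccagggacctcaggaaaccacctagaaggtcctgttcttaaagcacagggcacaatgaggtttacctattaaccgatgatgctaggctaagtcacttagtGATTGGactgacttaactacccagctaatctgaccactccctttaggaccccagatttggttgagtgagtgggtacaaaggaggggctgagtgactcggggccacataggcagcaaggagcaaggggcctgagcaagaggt
H2-Ob: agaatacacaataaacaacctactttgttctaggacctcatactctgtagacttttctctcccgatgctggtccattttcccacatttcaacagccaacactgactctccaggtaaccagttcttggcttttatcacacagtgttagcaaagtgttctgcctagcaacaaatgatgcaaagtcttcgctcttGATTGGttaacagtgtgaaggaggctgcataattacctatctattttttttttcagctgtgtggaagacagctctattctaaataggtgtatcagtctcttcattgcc
These 6 letters occurred in 16.1% of 32851 promoters of the same length, and in 6 of the 7 class II promoters at hand. Those were H2-Aa, H2-Eb1, H2-Eb2, H2-DMa, H2-DMb2 and H2-Oa, of which only H2-DMb2 and H2-Oa passed. The classical chains did not pass: H2-Ab1 changed by 0.55 (adjusted p = 0.38) and H2-Aa by 0.31 (adjusted p = 0.614), both with week 16 arrays 1 and 4 among the highest values. H2-Aa measured 12.12 and 12.19 in those arrays, 10.50 to 10.92 in the other week 16 arrays and 11.06 to 12.11 at week 24. The call of H2-DMb2 was lost in 3 of 10 leave-one-out fits, at most to 0.0607 without week 24 array 1. Neither gene passed in the fit of the 10 arrays alone, where 3 of the 10 had an unadjusted limma p under 0.05, or with the muscle level as a covariate, where 2 did.

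Interferon response genes had changes mostly above 0 but few passed. Of 15 type I interferon stimulated genes 13 had changes above 0, with a median of 0.58, and 1 rose: Oas1a, which encodes an enzyme that senses double-stranded RNA. It had 8.31, 7.26, 7.57, 8.16 and 7.45 at week 16 and 8.73, 9.34, 8.61, 8.26 and 9.60 at week 24. Week 24 array 4 alone fell below the highest week 16 array, and the rise was 1.16 ± 0.29 (adjusted p = 0.0134). Ifit1 (1.02, adjusted p = 0.176) and Ifit3 (0.91, adjusted p = 0.0977) had changes of similar size but were also high in week 16 array 1, at 8.23 and 8.26. The promoters of Oas1a and Ifit1 are shown because these genes had the largest changes of the list; the interferon stimulated response element is in capitals. Both are RefSeq promoters of build GRCm38.p6, at chr5:120907476-120907775 on the minus strand (Oas1a) and chr19:34640639-34640938 on the plus strand (Ifit1), written on the gene's strand.
Oas1a: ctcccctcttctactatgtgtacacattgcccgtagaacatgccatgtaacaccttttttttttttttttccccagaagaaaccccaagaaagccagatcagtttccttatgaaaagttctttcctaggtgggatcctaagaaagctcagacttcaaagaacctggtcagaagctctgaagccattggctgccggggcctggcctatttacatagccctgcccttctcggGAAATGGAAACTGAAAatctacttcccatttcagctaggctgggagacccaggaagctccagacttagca
Ifit1: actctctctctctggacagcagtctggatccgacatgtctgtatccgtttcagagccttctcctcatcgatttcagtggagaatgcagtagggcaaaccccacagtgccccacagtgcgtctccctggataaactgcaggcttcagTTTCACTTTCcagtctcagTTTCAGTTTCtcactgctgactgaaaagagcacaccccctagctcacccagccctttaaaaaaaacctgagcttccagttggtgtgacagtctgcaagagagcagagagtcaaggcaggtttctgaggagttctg
The element was searched as GAAA, any 2 bases and GAAA, on both strands with overlapping matches joined, and was found in 3.44% of 32851 promoters and in 5 of 10 members of this list with a promoter at hand (Ifit1, Ifit3, Oas1a, Rsad2 and Bst2). Of 13 interferon gamma response genes 1 rose, Irf8, a factor of B and myeloid cells, by 0.36 (adjusted p = 0.0488, and lost in 7 of 10 leave-one-out fits, at most to 0.147 without week 16 array 5). Cxcl9, a chemokine induced by interferon gamma, had 9.24, 5.13, 5.35, 9.36 and 5.19 at week 16 and 8.94, 8.67, 7.21, 6.66 and 9.03 at week 24. Its 2 highest values were both at week 16, and the change of 1.25 did not pass (adjusted p = 0.318). None of 12 immunoproteasome and MHC class I genes passed (2 at an unadjusted limma p under 0.05), with Psmb9 at 0.87 (adjusted p = 0.108) and Psmb8 at 0.80 (adjusted p = 0.154).

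Among granulocyte genes 1 eosinophil and 2 neutrophil transcripts rose. Prg2, the major basic protein of eosinophil granules, had 5.56, 5.46, 4.73, 5.91 and 4.93 at week 16 and 6.37, 7.29, 6.65, 6.10 and 7.33 at week 24. All week 24 arrays lay above all week 16 arrays, and the rise of 1.43 ± 0.22 (adjusted p = 0.000525) also passed with the RNA quality and muscle covariates and with any 1 array left out. It was the only 1 of 5 tested eosinophil and mast cell genes to pass, or to change above 0, and the list median was -0.155; the mast cell gene Cma1 and the receptor Kit changed by -0.35 and -0.55 (adjusted p = 0.309 and 0.103). S100a8 and S100a9, the paired calcium-binding proteins of neutrophils, rose by 1.05 ± 0.34 (adjusted p = 0.0431) and 1.03 ± 0.29 (adjusted p = 0.0222), the only 2 of 8 neutrophil genes to pass. S100a8 measured 4.24 to 4.87 at week 16 and 6.53, 5.49, 6.10, 4.53 and 5.28 at week 24, with week 24 array 4 inside the week 16 range, and its call was lost in 6 of 10 leave-one-out fits, at most to 0.167 without week 24 array 1; that of S100a9 was lost in 3, at most to 0.097 without the same array. Of 18 macrophage and dendritic cell genes none passed in either direction, and 3 had an unadjusted limma p under 0.05. Adgre1 and C1qa, defining macrophage genes, changed by 0.13 and 0.24 (adjusted p = 0.58 and 0.474), and Cd163, a scavenger receptor of resident macrophages, by -0.68 with every week 24 array below every week 16 array (adjusted p = 0.0788).

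The largest falls were of genes outside the immune lists. For 7 of the 10 largest every week 24 array lay below every week 16 array, as for 536 of all 960 called falls. The 10 were picked by size in these same arrays, so this separation is no further result about them. Kdf1, a regulator of keratinocyte differentiation, fell from 8.18, 8.24, 8.03, 8.26 and 8.41 to 5.79, 6.95, 5.19, 6.82 and 6.64. The week 16 arrays lay close together and the week 24 arrays far apart, without overlap, and the fall was 1.95 on the log2 scale, or 3.86-fold (SE 0.44, adjusted p = 0.00748). Slc23a2, a sodium-dependent vitamin C transporter, had the smallest adjusted p of the genes named, 3.98e-05, with 9.17, 10.17, 10.04, 9.85 and 9.86 at week 16 and 8.07, 8.72, 8.00, 8.35 and 8.37 at week 24. Pprc1, a coactivator of mitochondrial gene expression, fell by 1.48 (adjusted p = 0.000144). Sik3, a salt-inducible kinase, fell by 1.66 (adjusted p = 0.00642) and Zfhx3, a zinc finger homeobox factor, by 1.53 (adjusted p = 0.00956). Cdr2 fell 2.82-fold (adjusted p = 0.000525), Nr4a2, a nuclear receptor of the immediate early class, by 1.59 (adjusted p = 0.00182), Gm38910 by 1.52 and 5530400C23Rik by 1.86. Dusp1, also among the 10 largest falls, is given below with the immediate early genes. Other probe sets of the same gene differed in size: those of Sik3 changed by -0.27 to 0.02, those of Nr4a2 by -1.43 to 0.06 and those of Zfhx3 by -1.39 to 0.02. Of the 10 largest falls, those of Dusp1 and 5530400C23Rik were lost with an array left out, the latter at an adjusted p of 0.0595 without week 16 array 2.

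The levels at week 8 place these falls. Kdf1 measured 6.99 ± 1.28 (SD, n = 5) in control glands at week 8, 8.22 at week 16 and 6.28 at week 24; Slc23a2 measured 8.52 ± 0.30 at week 8 and 8.30 at week 24, and Pprc1 6.96 ± 0.48 and 6.79. For these 3 genes the week 16 group was thus the high one of the 3 ages. The week 8 control arrays had 3' minus 5' differences of 0.36 to 0.86, the week 16 arrays 0.23 to 0.38 and the week 24 arrays 0.29 to 0.61. The age with the higher levels was thus also the one with the smallest differences. With that difference as a covariate Kdf1 fell by 1.45, Slc23a2 by 1.36 and Pprc1 by 1.20, each past the threshold. With the muscle level as a covariate Slc23a2 and Pprc1 passed and Kdf1 did not. The part of RNA quality in these falls was not tested.

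**Figure D3:**
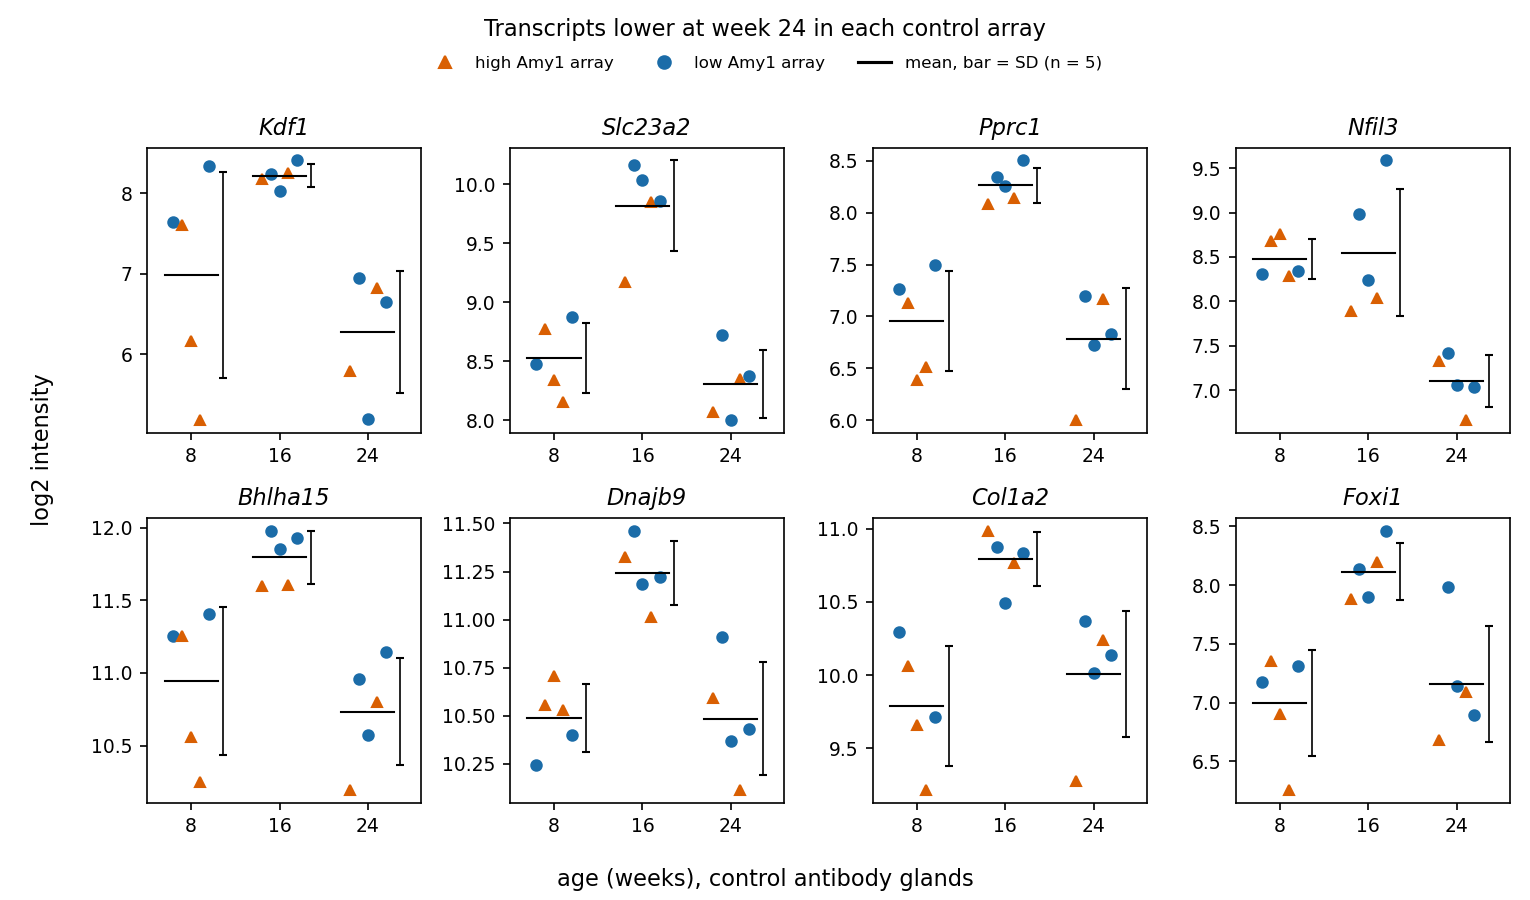
Log2 intensity of 8 transcripts that fell, in each control array at weeks 8, 16 and 24 (triangles, high Amy1 arrays; circles, low Amy1 arrays; lines, means; bars, SD, n = 5). Slc23a2 lay between 9.17 and 10.17 at week 16 and between 8.00 and 8.72 at week 24, with a week 8 mean of 8.52.

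Genes of protein folding and of acinar secretion fell in part. Of 16 unfolded protein response genes 5 fell and 1 rose, with a median of -0.20. Dnajb9, a co-chaperone of the endoplasmic reticulum induced through XBP1, had 11.33, 11.46, 11.18, 11.01 and 11.22 at week 16 and 10.59, 10.91, 10.37, 10.11 and 10.43 at week 24. No week 24 array reached the week 16 range, and the fall was 0.76 on the log2 scale (adjusted p = 0.00244). Sel1l, of the degradation complex, fell by 0.63 (adjusted p = 0.0289; lost in 5 of 10 leave-one-out fits, at most to 0.128 without week 24 array 1), Manf by 0.42 (adjusted p = 0.00687), and Atf4 also fell. Hspa5, the chaperone BiP, fell by 0.30 (adjusted p = 0.0116), from 12.86 to 13.16 at week 16 to 12.65 to 12.86 at week 24. Ddit3, the factor CHOP, rose by 0.37 (adjusted p = 0.0319; lost in 4 of 10 leave-one-out fits, at most to 0.109 without week 24 array 3), while its other probe set changed by -0.23.

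The promoter of Hspa5 is shown because it holds the endoplasmic reticulum stress element, in capitals. It is the RefSeq promoter of build GRCm38.p6 at chr2:34771840-34772139 on the plus strand.
Hspa5: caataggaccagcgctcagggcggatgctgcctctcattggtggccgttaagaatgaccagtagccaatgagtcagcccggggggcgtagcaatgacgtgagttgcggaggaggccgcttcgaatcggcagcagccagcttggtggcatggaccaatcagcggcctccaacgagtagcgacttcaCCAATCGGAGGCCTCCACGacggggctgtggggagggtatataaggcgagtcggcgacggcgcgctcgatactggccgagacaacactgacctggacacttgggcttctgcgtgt
The element was searched as CCAAT, any 9 bases and CCACG, on both strands, and occurred in 0.119% of 32851 promoters and in 5 of the 14 list members with a promoter at hand (Hspa5, Dnajc3, Pdia6, Calr and Hsp90b1). Of these 5, Hspa5 alone passed over this step.

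Among 13 acinar genes 3 fell and none rose, with a median of -0.25. Bhlha15, which encodes the secretory cell factor MIST1, had 11.60, 11.98, 11.86, 11.61 and 11.93 at week 16 and 10.20, 10.96, 10.57, 10.80 and 11.14 at week 24. The groups did not overlap, and the fall of 1.06 (SE 0.19, adjusted p = 0.00158) was kept with any 1 array left out and with either covariate. Smgc, a submandibular gland secretory protein, fell by 0.61 (adjusted p = 0.0124) and Prol1, at the top of the scale, by 0.19 (adjusted p = 0.0388; lost in 8 of 10 leave-one-out fits, at most to 0.0904 without week 24 array 3). Aqp5 changed by -0.39 (adjusted p = 0.062) and the peroxidase gene Lpo by -0.57 (adjusted p = 0.0863). Of 14 genes of duct ion transport and ionocytes 3 fell and none rose: Foxi1, the ionocyte factor, by 0.96 (adjusted p = 0.00822), Kcnma1, a potassium channel, by 0.69 (adjusted p = 0.0229; lost in 4 of 10 leave-one-out fits, at most to 0.0883 without week 24 array 1), and Elf5, a duct and luminal epithelial factor, by 0.59 (adjusted p = 0.00377). Foxi1 measured 7.88 to 8.46 at week 16 and 6.68, 7.98, 7.14, 7.09 and 6.89 at week 24, with week 24 array 2 alone inside the week 16 range. None of 12 granular duct genes passed, and none had an unadjusted limma p under 0.05; Egf changed by -0.21 (adjusted p = 0.322) and Klk1 by -0.05 (adjusted p = 0.519).

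Some collagen transcripts fell. Of 18 fibroblast and matrix genes 4 fell, none rose and 6 were lower in every week 24 array, with a median of -0.34. Col1a2, a chain of type I collagen, had 10.99, 10.87, 10.49, 10.76 and 10.83 at week 16 and 9.28, 10.37, 10.01, 10.24 and 10.14 at week 24. Every week 24 array lay below every week 16 array, with array 1 the lowest by far, and the fall was 0.78 (SE 0.24, adjusted p = 0.0355). Col1a1 fell by 0.87 (adjusted p = 0.0436), Col6a1, of type VI collagen, by 0.69 (adjusted p = 0.0125) and Sparc, a collagen-binding matrix protein, by 0.49 (adjusted p = 0.0295). Without week 24 array 1, the array with the largest 3' minus 5' difference, none of these 4 passed (adjusted p = 0.145, 0.141, 0.058 and 0.0933 in the order given); with single arrays left out the count ranged from 0 to 6, and it was 1 with the 3' minus 5' difference as a covariate. It was 0 with the muscle level (7 at an unadjusted limma p under 0.05) and 0 within low Amy1 arrays (4 unadjusted). Col5a2 and Col6a3 were also lower in every array but did not pass (adjusted p = 0.0526 and 0.0745).

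Of 17 clock genes 2 fell and none rose. Nfil3, a repressor tied to the circadian clock and to immune cell development, fell by 1.44 (SE 0.28, adjusted p = 0.0033), with 7.89, 8.98, 8.24, 8.04 and 9.59 at week 16 and 7.33, 7.42, 7.06, 6.67 and 7.04 at week 24. Clock itself fell by 0.89 (adjusted p = 0.0186; lost in 2 of 10 leave-one-out fits, at most to 0.0689 without week 16 array 5). Per1 and Cry1 changed by -0.81 and -0.70 (adjusted p = 0.0856 and 0.0555). Of 13 immediate early genes Dusp1, a phosphatase that ends MAP kinase signals, and Klf4, a zinc finger factor, fell. Dusp1 had 11.01, 10.37, 10.61, 8.63 and 10.11 at week 16 and 7.89, 7.98, 7.76, 7.76 and 10.50 at week 24, so the ages overlapped through week 16 array 4 and week 24 array 5 (fall of 1.77, adjusted p = 0.0282; lost in 6 of 10 leave-one-out fits, at most to 0.0871 without week 24 array 1). Klf4 fell by 1.09 without overlap (adjusted p = 0.000754), while Egr1 changed by 0.45 (adjusted p = 0.402). No source used here states the hour of tissue collection.

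Of 14 skeletal muscle genes on the array 8 were bright enough to be tested, of which 5 rose and none fell. Acta1, skeletal actin, had 5.33, 5.28, 5.23, 5.31 and 5.21 at week 16 and 5.67, 8.44, 7.04, 5.35 and 6.08 at week 24, with arrays 2 and 3 the highest and array 4 barely above the week 16 values (rise of 1.25, adjusted p = 0.0403; lost in 7 of 10 leave-one-out fits, at most to 0.102 without week 24 array 3). Pvalb (1.14, adjusted p = 0.0028), Tnni2 (0.87, adjusted p = 0.00687) and Mylpf (0.74, adjusted p = 0.023; lost in 2 fits, at most to 0.0624 without week 24 array 3) were likewise higher in every week 24 array, and Tcap passed too; Ckm changed by 0.37 (adjusted p = 0.239). Tagln was the 1 of 12 myoepithelial and smooth muscle genes to pass (0.45, adjusted p = 0.0358; lost in 6 of 10 leave-one-out fits, at most to 0.102 without week 16 array 2), and Acta2 changed by -0.10. No gene passed in limma among 16 of cell division, 9 endothelial, 6 autoantigen and 5 adipocyte genes, where none had an unadjusted p under 0.05 either. None passed among 14 of respiratory chain complex I (4 unadjusted), 10 of antioxidant defence (2), 7 complement (1) and 6 parotid genes (2). The brown fat genes Ucp1 and Cidea ranged from 4.99 to 9.09 and from 4.61 to 9.27 within week 16 alone.

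The step was also measured within each Amy1 class. In the 3 low Amy1 arrays of each age, 12 of 18 B cell genes rose, with a median of 1.37, as did 6 of 13 T cell genes, 4 of 10 MHC class II genes and 5 of 13 interferon gamma response genes. In the 2 high Amy1 arrays of each age none of these genes passed in limma (2 B cell, 1 T cell, 2 MHC class II and 5 interferon gamma response genes at an unadjusted p under 0.05), with medians of 0.10 for B cell, -0.01 for T cell, -0.59 for MHC class II and -1.10 for interferon gamma response genes. Over all genes 578 passed in the low class (4.45%) and 3 in the high class (0.0231%), where 2 arrays stand against 2. The week 16 level of the interferon gamma list was 8.54 and 8.35 in the high Amy1 arrays and 6.48 to 6.74 in the low ones; at week 24 it was 7.79 and 6.99 against 7.27 to 8.43. The difference of the step between the classes was itself past an adjusted p of 0.05 for 31 of 12999 genes (0.238%; limma, separate means for both classes), and no difference between classes was tested for a list as a whole. Among the genes named these were Prg2 (2.05 in the low and 0.50 in the high class), Ccl5 (1.62 and -0.99) and H2-DMa (1.42 and -0.69), each with an adjusted p of 0.0429. For Ms4a1 the steps were 4.26 and 0.89, and for Cxcl9 3.08 and -1.495, but these differences did not pass (adjusted p = 0.166 and 0.163). The secretory gene Bhlha15 changed by -1.03 in the low class (adjusted p = 0.0059) and by -1.11 in the high class, where it did not pass (adjusted p = 0.061). Dnajb9 changed by -0.72 (adjusted p = 0.0304) and by -0.82, again without passing in the high class (adjusted p = 0.0824).

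**Figure D4:**
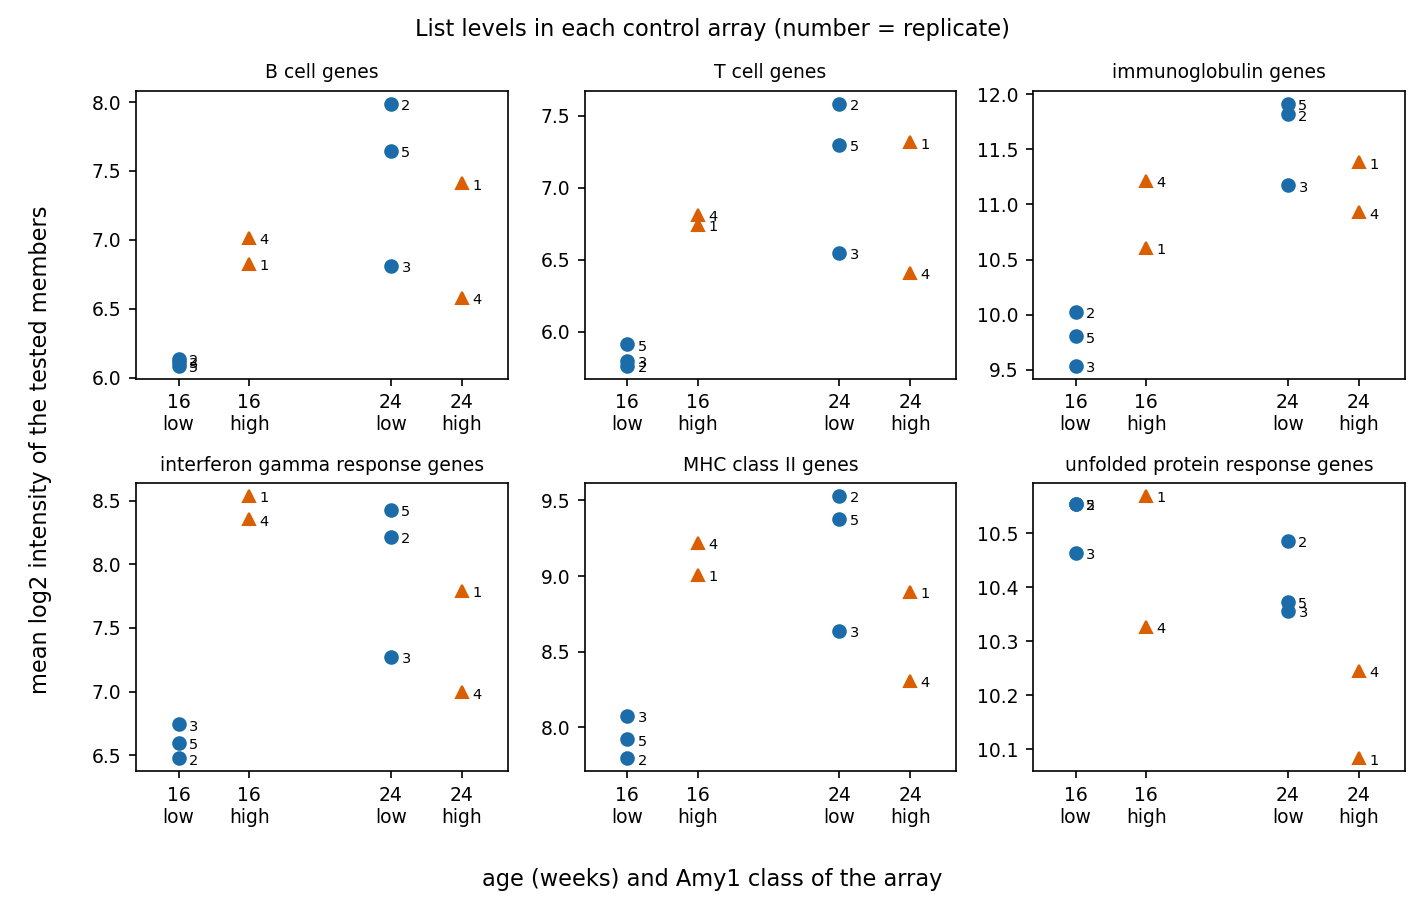
Mean log2 intensity of the tested members of 6 lists in each control array at weeks 16 and 24, split by Amy1 class, with the replicate number beside each point. In the interferon gamma list the 2 high Amy1 arrays of week 16, at 8.54 and 8.35, lay above all 5 and above 4 of the 5 week 24 arrays.

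The same step was then set against that of glands from mice given anti-CD40L. There 699 genes passed between week 16 and week 24 (5.38%), of which 325 rose (2.5%) and 374 fell (2.88%). The steps shared 143 called genes, 8.89% of the control calls and 20.5% of the anti-CD40L calls, 132 of them in the same direction. A direct test of the difference between the steps passed for 151 genes (1.16%), 69 with the higher change in control glands (0.531%) and 82 with the lower (0.631%). Leaving out single arrays moved this number between 46 and 352. Of all 12999 genes, 2301 had an unadjusted p under 0.05 in the limma test of the difference.

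Of 6 antibody genes 2 differed in their step between the treatments, Ighg3 with the higher and Igha with the lower change in control glands. Of 12 plasma cell genes 1 differed, with the higher change in control glands. Ighg3 rose in control glands but measured 6.05 ± 0.12 (SD, n = 5) at week 16 and 6.08 ± 0.10 at week 24 after anti-CD40L, and the difference of 2.41 ± 0.58 (SE) passed (adjusted p = 0.0339). Igha went the other way: it rose by 1.47 after anti-CD40L (adjusted p = 0.00158), from 11.42 ± 0.42 to 12.89 ± 0.35, with little change in controls, and the difference was -1.52 (adjusted p = 0.0408). Control Igha was near the top of the scale at both ages, with means of 13.45 and 13.40. Whether the scale limited a rise in controls was not tested. Jchain rose by 1.98 (adjusted p = 0.00101) and Igk by 1.26 (adjusted p = 0.00166) in the treated glands, both to levels still below the control means at the same age, but their differences did not pass (adjusted p = 0.1 and 0.0643). Nor did that of Ighm, at 2.53 ± 1.09 (adjusted p = 0.221). Of the B cell genes 1 of 18 rose in treated glands, and Ms4a1 measured 4.72 ± 0.22 and 4.90 ± 0.30; yet no B cell gene and no T cell gene passed the limma test of the difference (9 and 2 at an unadjusted p under 0.05), with Ms4a1 at 2.73 ± 0.83 (adjusted p = 0.0955) and Cd79b at 1.73 ± 0.51 (adjusted p = 0.0897). Prg2 rose in both, by 0.93 in treated glands (adjusted p = 0.0124), and its difference of 0.50 did not pass (adjusted p = 0.412).

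Outside the lymphocyte lists the steps differed for 4 of 18 matrix genes, 2 of 8 neutrophil genes, 1 of 13 acinar genes and 1 of 16 unfolded protein response genes. They also differed for 1 of 14 duct ion transport and ionocyte genes and 1 of 12 myoepithelial and smooth muscle genes. S100a8 and S100a9 differed by 2.16 ± 0.48 (adjusted p = 0.026) and 1.85 ± 0.41 (adjusted p = 0.0235): in treated glands S100a8 measured 5.91 ± 0.92 at week 16 and 4.80 ± 0.53 at week 24. Of the matrix genes 6 of 18 rose in treated glands, with a median of 0.47, and 4 passed the difference test. Col1a2 rose there by 0.91 (adjusted p = 0.0253) and differed by -1.70 ± 0.34 (adjusted p = 0.0164), Col6a1 by -1.17 (adjusted p = 0.0196) and Col6a3 by -1.06. Dnajb9 rose by 0.51 in treated glands (adjusted p = 0.035) and differed by -1.26 ± 0.20 (adjusted p = 0.00345), Foxi1 by -1.46 (adjusted p = 0.0218), Pprc1 by -1.26 (adjusted p = 0.0314) and Bhlha15 by -1.05 (adjusted p = 0.044). At week 16, before these steps, Col1a2 and Dnajb9 had higher means in control than in treated glands (10.79 against 9.94 and 11.24 against 10.47). Nfil3 and Dusp1 fell in both, by 1.15 and 1.82 in treated glands (adjusted p = 0.0162 and 0.0369), and their differences did not pass (adjusted p = 0.747 and 0.981). The 3' minus 5' difference ran from 0.21 to 0.30 and from 0.16 to 0.25 in the treated arrays at weeks 16 and 24; with it as a covariate 71 genes passed the difference test, and with the muscle level 9.

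**Figure D5:**
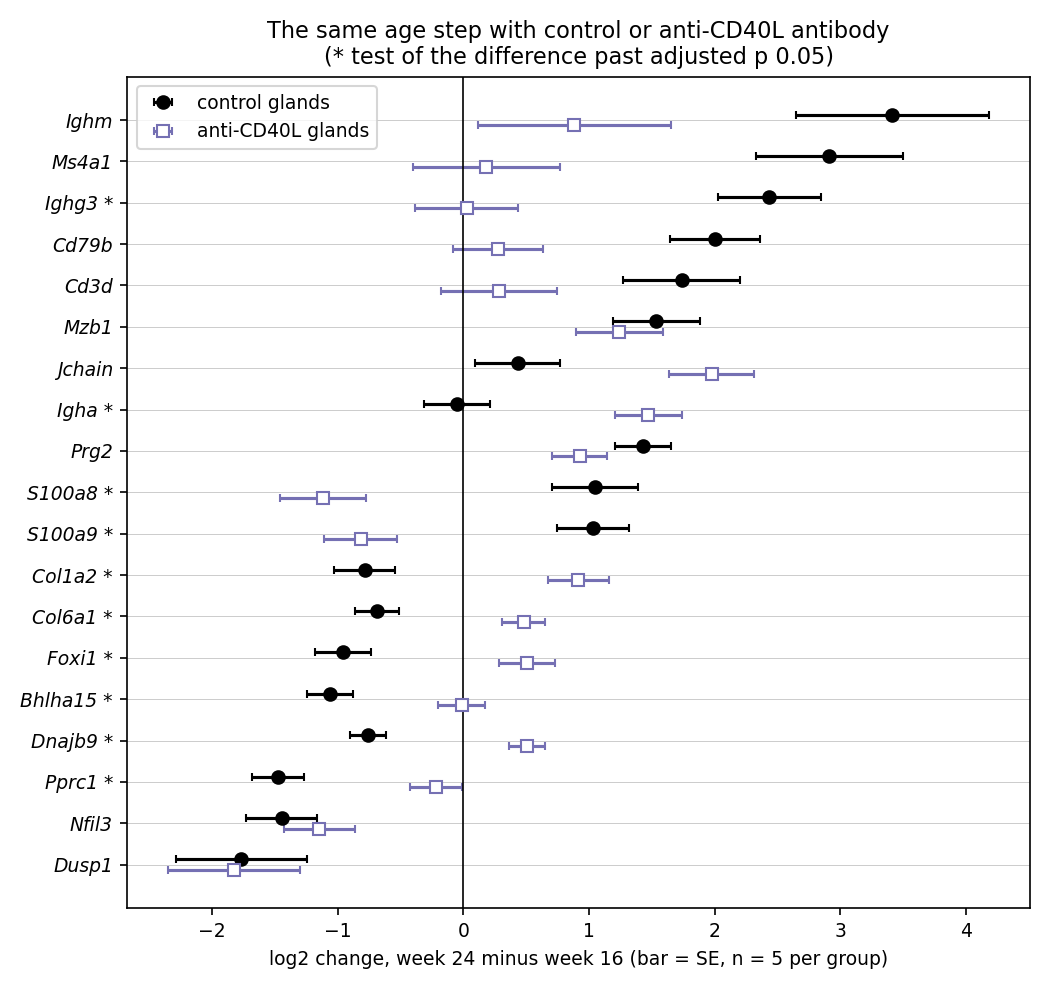
Log2 change from week 16 to week 24 of 19 named genes in control glands (filled circles) and anti-CD40L glands (open squares), with bars for the standard error (n = 5 arrays per group); an asterisk marks genes whose steps differed at an adjusted p under 0.05. Ighg3 changed by 2.44 and 0.03, Igha by -0.05 and 1.47, and Col1a2 by -0.78 and 0.91.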

How the data were processed

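Total salivary gland RNA of 30 samples from NOD.H-2h4 mice was measured on Affymetrix arrays. The authors deposited 1 table of log2 intensities for 45101 probe sets, with values from 2.757 to 14.457 and array medians from 5.487 to 5.537. The submitters' processing notes name limma without a version; background correction and normalization are not given in the sources used here, and the values were used as deposited.

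Probe sets with exactly 1 gene symbol were kept (34958), with the highest mean over all arrays standing for a gene (18194 genes). Genes were tested where 5 or more arrays showed them brighter than that array's median (12999 genes). A gene bright in 1 group alone can pass this filter, so the tested members of a list may favour differences between groups. Of 487 list members 428 were on the array and 355 were tested. limma 3.58.1 in R 4.3.3 was fitted to all 30 arrays with 1 mean per group, and p-values were adjusted by Benjamini-Hochberg over all genes tested. Each gene had 1 spread shared by all 6 groups, so standard errors and p-values are not those of the 10 control arrays alone. On simulated data with genes shifted by 0.5, 1 and 2 log2 units, the control comparison recovered 53.7%, 92.5% and 100% of them, with 2.96% false calls. The simulated noise was independent and normal, with 1 spread per gene in all groups and no differences in tissue make-up or RNA quality. These rates therefore need not hold for the measured arrays. The number of arrays limits the precision. p-values measure only the spread between these arrays.

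The members and lists were chosen with earlier results of these data known. Named genes are Cd40lg and Cd40, the 10 largest rises and falls past the threshold, up to 4 called and 2 uncalled genes of each list, and cell type markers. One rise, an immunoglobulin variable segment, is counted but not named. Igha, Igk, Spib, Cd22, Ly6d, Tnfrsf13c, H2-Aa, Hspa5, Lat, Atf4 and Tcap were named after their values were seen. High and low Amy1 arrays were split at the midpoint of its range. Alternatives changed the arrays fitted, normalization, filter, probe set rule, weights and covariates.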

Additional observations from a re-analysis of the deposited data

Results flagged for a closer look

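The step from week 16 to week 24 differed between control and anti-CD40L glands, by the interaction test in limma, for 11 of the genes named. The control step was the higher one for Ighg3 (2.41 on the log2 scale), S100a8 (2.16) and S100a9 (1.85). It was the lower one for Col1a2 (-1.70), Igha (-1.52), Foxi1 (-1.46), Dnajb9 (-1.26), Pprc1 (-1.26), Col6a1 (-1.17), Col6a3 (-1.06) and Bhlha15 (-1.05). Igha was near the top of the scale in control glands at both ages.

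In 18 of 286 groups of 5 control arrays checked, 1 array stood far from the other 4; chance flags about 1 in 20 such groups. Week 24 array 1, which also had the largest 3' minus 5' difference, was the lowest of its group for Aqp5 (10.9), Acta2 (11.2), Derl3 (10.4), Herpud1 (10.8) and Gstm1 (8.37). Week 16 array 4 was the lowest for Creld2 (9.66) and Manf (11.6) and the highest for Glycam1 (6.34). Week 16 array 2 was the highest for Kit (7.62) and for the brown fat genes Ucp1 (9.09) and Cidea (9.27), where the other 4 week 16 arrays reached at most 5.25 and 4.97. Week 24 array 5 was the highest for Dusp1 (10.5), against at most 7.98 in the others. Single flags fell on Cd4 in week 24 array 3 (7.18), Cxcr2 (4.92) and Pvalb (7.46) in week 24 array 2, Cfb in week 24 array 4 (5.84), Sparc in week 16 array 3 (10.3) and Krt14 in week 16 array 1 (8.77).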

How the results depend on the processing

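The control comparison called 1609 genes. It called 633 when only the 10 arrays compared were fitted, 2567 with array weights, 717 with the 3' minus 5' difference as a covariate, 155 with the skeletal muscle level as a covariate, 578 within low Amy1 arrays and 3 within high Amy1 arrays. With single arrays left out it ranged from 566 to 2229. The replicate number as a block left 1510 calls; same-numbered arrays had deviation correlations of -0.09 to 0.31, so the numbers were not taken to pair them, and 7 of 66 called named genes no longer passed with the block. The muscle level took the call from 53 of the 66 and turned 1, the fit of the 10 arrays alone took it from 33, the 3' minus 5' difference from 27, leaving out week 24 arrays 2 and 3 from 21, low Amy1 arrays from 20 and high Amy1 arrays from 60, with 6 more turned. The anti-CD40L step (699) became 1570, 2006, 1348 and 63 with only the arrays compared, array weights, the 3' minus 5' difference and high Amy1 arrays, and 339 to 641 with single arrays left out. The difference between the steps (151) became 280, 764, 71, 0 and 9 with only the arrays compared, array weights, the 3' minus 5' difference, high Amy1 arrays and the muscle level, 265 with quantile normalization, 43 without week 16 arrays 1 and 4, and 46 to 352 with single arrays left out. The difference within high Amy1 arrays had 1333 genes at an unadjusted p under 0.05. The muscle covariate and the fit without week 24 arrays 2 and 3 were chosen after seeing the data. Of 66 called named genes 32 kept their call without any 1 array. Within high Amy1 arrays, with 2 against 2, the sign turned for H2-Ob (-0.28), Spib (-0.36), Igkv6-14 (-0.10), Irf8 (-0.0665), Il7r (-0.0490) and Cd2 (-0.0105), and with the muscle covariate for Acta1 (-0.20), itself part of that level. The cause was not tested. Named genes that passed under neither setting changed sign in 91 further cases. Signal limits Cd40lg and other dim genes, which were not tested.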

Other observations

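Among all genes tested, those whose steps differed most between control and anti-CD40L glands include several outside every list above; they were picked after their values were seen. Ttr, the thyroxine and retinol carrier transthyretin, changed by 0.25 in control glands (adjusted p = 0.801) and fell by 2.99 after anti-CD40L (adjusted p = 0.00233), a difference of 3.23 ± 0.80 (limma adjusted p = 0.0408). Folh1, a glutamate carboxypeptidase, likewise fell by 2.14 in treated glands alone (difference 1.94, limma adjusted p = 0.042). Its means were 6.51 and 4.36 in treated glands at weeks 16 and 24, and 4.84 and 4.64 in controls. Only the treated week 16 mean exceeded the array medians of 5.487 to 5.537. Folh1 thus entered the test mainly through the group where it was high, and its fall is no independent result. Cpxm1 and the growth factor binding protein gene Igfbp5 rose after anti-CD40L, by 1.60 and 1.27, with control changes of -0.27 and -0.69 that did not pass (differences -1.87 and -1.96, adjusted p = 0.00345 and 0.0127).

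Other genes fell in control glands. Tmigd1, an epithelial adhesion protein, fell by 0.71 in controls (adjusted p = 0.00495) and rose by 0.89 after anti-CD40L (adjusted p = 0.000806), the difference of -1.60 having an adjusted p of 0.000344. Ret, the receptor of glial cell line-derived neurotrophic factors, fell by 1.30 in control glands (adjusted p = 0.00213), from a mean of 8.93 to 7.63, and changed by 0.26 in treated glands (adjusted p = 0.619; difference -1.56, adjusted p = 0.0218). Col6a2, a partner chain of Col6a1, fell by 0.82 in control glands and was lower in every week 24 array (difference -1.53, adjusted p = 0.0156).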
